A study of Homo sapiens with 9 samples.

Results

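The 40 genes described here repair damaged or mispaired bases without a double-strand break: 11 DNA glycosylases, 9 genes of the later steps of base excision, 12 genes of nucleotide excision, 6 of mismatch repair, and 2 that act on the nucleotide pool or reverse damage directly. They were chosen by name for these roles, with no rule on measured values, and each was read from the probe set with exactly 1 gene symbol and the highest mean over 9 arrays. All 40 were measured, among 18239 genes in all. Expression was measured on Affymetrix arrays in K562, an established human leukaemia line of erythroid and megakaryocytic character. The cells had been transduced with retrovirus carrying Del52 CALR, INS5 CALR (called Ins5 here) or WT CALR, with 3 arrays for each form. There were 4 rounds of infection, 12 h apart, and culture after transduction lasted 36 h. Cells were selected by magnetic beads for the NGFR surface marker, with a purity above 90% when checked 48 h after selection. Del52 is a deletion and Ins5 an insertion in calreticulin, a chaperone of the endoplasmic reticulum, and both are known from myeloproliferative neoplasms. All groups carried a transduced CALR beside the line's own genes, cells without a transduced CALR were not analysed here, and the labels name no promoter of the transgene. The study, by its title, concerns how blood cells with these mutations handle unfolded proteins and oxidative stress. No label says that the 3 samples of a group came from separate transductions, so the p-values measure only the spread between these samples.

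Base excision repair begins with a glycosylase that cuts a damaged base off its sugar. An endonuclease then opens the strand, and a polymerase and a ligase fill and seal the gap. Nucleotide excision repair removes a short stretch of strand around a bulky lesion, such as one made by ultraviolet light. Mismatch repair corrects replication errors through MutS-type proteins, which find the mismatch, and MutL-type proteins, which direct the cut. Oxidized bases are mainly substrates of base excision, and oxidized guanine in the nucleotide pool is destroyed before it can be built in.

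Values are RMA values on the log2 scale, in which 1 unit is a factor of 2. They describe 1 probe set each and do not rank genes against each other. Array medians lay between 3.73 and 3.76. The number of arrays limits the precision: the 95% interval of a member's log2 fold change reached a median of 0.21 to either side. The 23 antigenomic control probe sets, which match no human sequence, read between 1.53 and 6.52, and 16 of 40 members were above 6.52 in every array. The median of these controls was 2.01, and 0 of 40 members had a mean over 9 arrays below it. The erythroid factors GATA1 and KLF1 read at least 7.96 and 7.83, and the mean of 7 measured K562 markers was 8.16 to 8.45. Of 9 measured markers of other cells, the myeloid LYZ (at least 9.40) and the epithelial EPCAM (at least 8.22) were bright in every array, and the T-cell gene CD3E, MPO and COL1A1 stayed at or below 3.75. CALR itself averaged 7.42 ± 0.18 in Del52 cells, 7.40 ± 0.12 in Ins5 cells and 7.57 ± 0.24 in WT cells (SD, n = 3 each). NGFR, the gene of the selection marker, read between 3.33 and 3.48 over all arrays, within the span of the antigenomic controls. Arrays of bulk RNA cannot tell fewer cells with a transcript apart from less of it per cell.

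No repair gene passed the limma test in either mutant or between the mutants. All 9 arrays entered 1 limma fit, with p-values adjusted by Benjamini-Hochberg over all genes and a threshold of 0.05. For Del52 against WT, 0 of 40 members and 0% of all genes passed, and the smallest adjusted p of a member was 0.625. At an unadjusted p under 0.05 there were 2 members, or 5% of them, against 7.05% of all genes: 1 higher (NUDT1), against 4.1% of all genes, and 1 lower (ERCC5), against 2.95%. For Ins5 against WT, 0 members and 0% of all genes passed (smallest adjusted p of a member 0.581), with 2 members at an unadjusted p under 0.05, against 7.41% of all genes: both were higher (MUTYH and MGMT), against 5.15%, and 0 lower, against 2.25%. For Del52 against Ins5, 0 members and 0% of all genes passed (smallest adjusted p of a member 0.841), with 2 members at an unadjusted p under 0.05, against 5.77% of all genes: both were lower (MUTYH and XPA), against 3.55%, and 0 higher, against 2.22%. Counted in either direction, the share of members was below that of all genes in each comparison. In the lower direction of Del52 against Ins5 it was above (5% against 3.55%). The limma F test over the 3 groups had 4 of 40 members at an unadjusted p under 0.05 (10%), against 7.23% of all genes, and 0 after adjustment. With limma's default array weights, 8 of 40 members were called in Del52 against WT, among 3190 of 18239 genes. In Ins5 against WT 10 of 40 were called, among 4017 genes. Those weights put nearly all the weight of the WT group on 1 array. With weights estimated gene by gene 0 members were called.

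**Figure D1:**
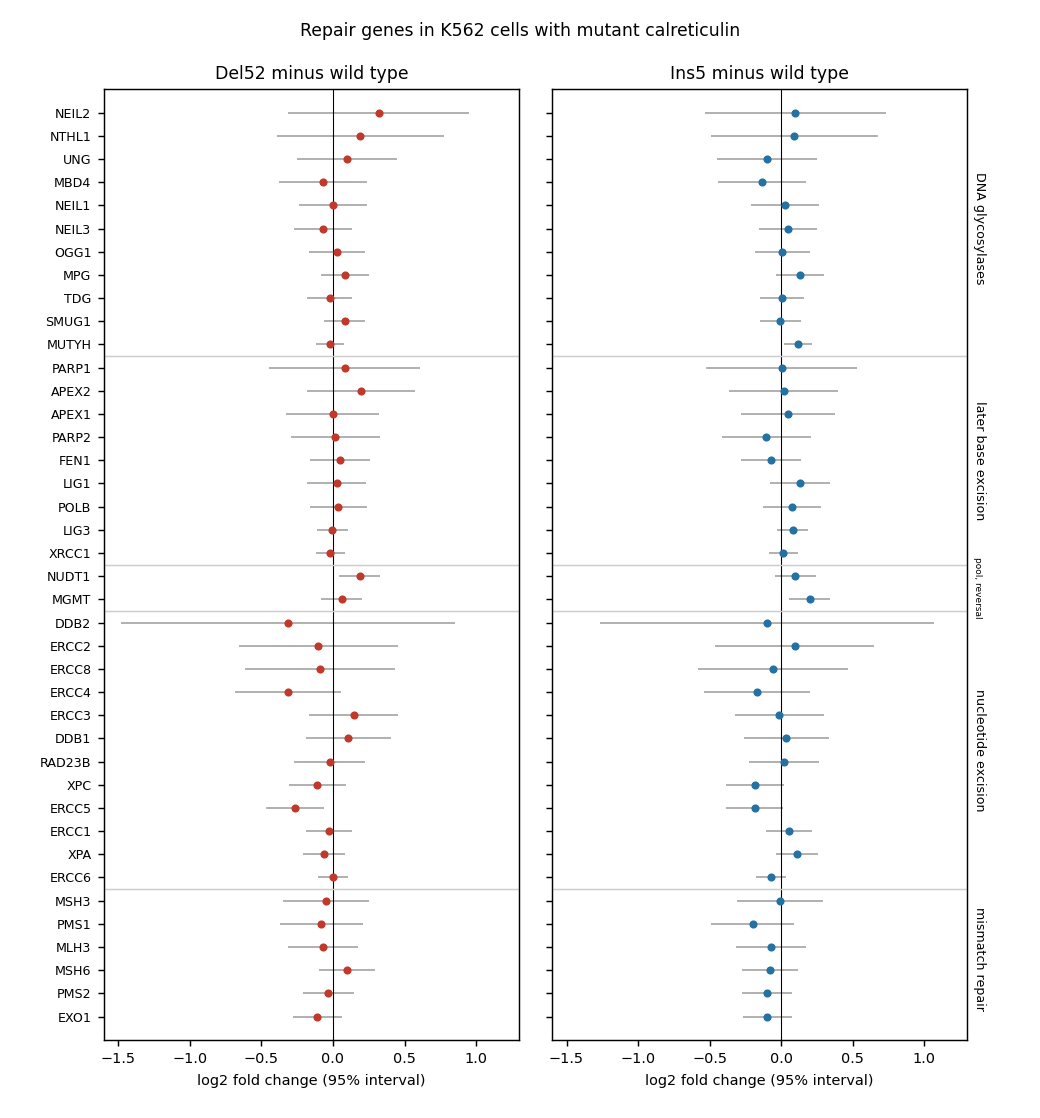
Log2 fold change of each of the 40 genes in Del52 minus wild type (left) and Ins5 minus wild type (right), with the 95% interval of the limma fit as bars and genes grouped by role. The points lie between -0.32 and 0.32 in Del52 and between -0.20 and 0.20 in Ins5, and DDB2 has the widest interval.

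The list as a whole was centred near 0. Its median log2 fold change was -0.003 in Del52 against WT, beside 0.010 over all genes, with 17 members positive and 23 negative. In Ins5 against WT the median was 0.007, beside 0.020 over all genes, with 22 positive and 18 negative. Without Ins5 replicate 3 that median was -0.036, and without WT replicate 2 it was 0.057. Between Del52 and Ins5 it was -0.020, beside -0.010 over all genes, and it was 0.022 without Ins5 replicate 3. Fold changes of members ran between -0.32 and 0.32 in Del52 and between -0.20 and 0.20 in Ins5.

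Among the glycosylases, MUTYH, which removes adenine placed opposite oxidized guanine, had the smallest unadjusted p. It read 5.19, 5.14 and 5.18 in Del52, 5.32, 5.27 and 5.33 in Ins5, and 5.17, 5.25 and 5.15 in WT cells. All Ins5 arrays were above all arrays of both other groups, and Del52 and WT overlapped. The log2 fold change was 0.12 ± 0.04 (SE) in Ins5 against WT (limma adjusted p = 0.633) and -0.14 ± 0.04 in Del52 against Ins5 (limma adjusted p = 0.841). MUTYH also had the smallest spread within groups of all 40 members (SD 0.038). It has 1 probe set here, and its values did not pass the brightest antigenomic control.

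OGG1, which cuts out oxidized guanine itself, read 5.60, 5.54 and 5.69 in Del52, 5.73, 5.54 and 5.51 in Ins5, and 5.46, 5.71 and 5.59 in WT cells. The 3 groups overlapped, with log2 fold changes of 0.03 in Del52 and 0.01 in Ins5 against WT. The glycosylases of oxidized pyrimidines, NTHL1, NEIL1, NEIL2 and NEIL3, had 0.19, -0.00, 0.32 and -0.07 in Del52 and 0.09, 0.02, 0.10 and 0.05 in Ins5. NEIL2 had the largest positive fold change of all members in Del52, but its arrays spread over 5.39, 4.86 and 5.52 in Del52, 4.95, 4.90 and 5.27 in Ins5, and 4.89, 5.47 and 4.45 in WT cells. The 95% interval ran between -0.31 and 0.95, and a dimmer NEIL2 probe set had -0.06.

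Glycosylases of uracil, thymine mispairs and alkylated bases overlapped between groups in their brightest probe sets. UNG, which removes uracil, had 0.10 in Del52 and -0.10 in Ins5, and SMUG1, a further uracil glycosylase, 0.08 and -0.01. A dimmer SMUG1 probe set had 0.26 in Del52, with every Del52 array above every WT array, and 0.16 in Ins5. TDG and MBD4, which act on thymine or uracil opposite guanine, had -0.02 and -0.07 in Del52 and 0.01 and -0.13 in Ins5. MPG, the glycosylase of alkylated purines, had 0.08 and 0.13. Of 11 glycosylases, 5 were negative in Del52, and 3 in Ins5, where the count was 6 after each array was centred on its median, 5 after quantile normalization, 6 without Ins5 replicate 3 and 5 without WT replicate 3. Over all genes, 45.4% were negative in Del52 and 40.4% in Ins5.

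In the later steps of base excision, the nuclear and mitochondrial ligase LIG3 was the member whose groups separated in the brightest probe set. It read 4.64, 4.63 and 4.63 in Del52, 4.76, 4.66 and 4.73 in Ins5, and 4.58, 4.70 and 4.63 in WT cells. Every Del52 array was below every Ins5 array, and WT overlapped both. Del52 against Ins5 had a log2 fold change of -0.08 ± 0.05 (SE, limma adjusted p = 0.952), and -0.01 as the mean of all LIG3 probe sets. Of 4 dimmer LIG3 probe sets, 3 were also negative in Del52 against Ins5 (-0.01, -0.00 and -0.10) and 1 was positive (0.14), with every Del52 array above every Ins5 array.

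XRCC1, the scaffold that holds LIG3 at a nick, had almost the same value in every array of its brightest probe set: 5.40, 5.46 and 5.37 in Del52, 5.47, 5.38 and 5.48 in Ins5, and 5.41, 5.45 and 5.43 in WT cells. Its range over 9 arrays was 1.08-fold, the narrowest of the 40 members. A dimmer XRCC1 probe set gave another picture, with 4.89, 4.98 and 4.96 in Del52, 5.11, 5.03 and 5.14 in Ins5, and 5.22, 5.20 and 5.11 in WT cells. There every Del52 array was below all other arrays, and the log2 difference of Del52 minus WT was -0.24, against -0.02 in the brightest. The endonucleases APEX1 and APEX2, which open the strand at a site without a base, had log2 fold changes of -0.00 and 0.20 in Del52 and 0.05 and 0.02 in Ins5. POLB, the gap-filling polymerase, had 0.04 in Del52 and 0.08 in Ins5. LIG1 and the flap nuclease FEN1, used where a longer patch is made, had 0.03 and 0.05 in Del52 and 0.13 and -0.07 in Ins5. Both dimmer FEN1 probe sets had every Del52 array above every Ins5 array, with differences of 0.17 and 0.16. In the dimmest, every Del52 array was also above every WT array (0.14). PARP1 and PARP2, which sense strand breaks and build poly(ADP-ribose), had 0.08 and 0.02 in Del52 and 0.00 and -0.10 in Ins5. Of these 9 genes, 3 were negative in Del52 and 2 in Ins5. The Del52 count was 5 without Del52 replicate 1 or 3, 6 without WT replicate 3, and 1 without both WT replicates 2 and 3. The Ins5 count was 6 without Ins5 replicate 3, 4 without WT replicate 3 and 5 after each array was centred on its median.

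NUDT1, the enzyme that destroys oxidized guanine nucleotides in the pool, was the member with every mutant array above every WT array in the brightest probe set. It read 6.79, 6.71 and 6.91 in Del52, 6.71, 6.78 and 6.66 in Ins5, and 6.63, 6.65 and 6.56 in WT cells. The distance between the lowest mutant and the highest WT array was small, and Del52 and Ins5 overlapped. Against WT, Del52 had a log2 fold change of 0.19 ± 0.06 (SE, limma adjusted p = 0.631, 95% interval 0.04 to 0.33) and Ins5 one of 0.10 ± 0.06 (limma adjusted p = 0.795), which was 0.07 after each array was centred on its median. Over all genes, 6.23% had every Del52 array above every WT array, and 8.16% had every Ins5 array above every WT array. In the brightest probe sets, NUDT1 was the only member of this kind in Del52, and MUTYH joined it in Ins5. A dimmer LIG3 probe set also had every mutant array above every WT array. Both comparisons use the same WT arrays. The share of all genes above WT in both mutants at once was not computed, so the order is not read as particular to NUDT1. With any 1 array left out the NUDT1 fold change stayed between 0.13 and 0.24 in Del52 and between 0.07 and 0.13 in Ins5.

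In the brightest probe sets, NUDT1 was the member set apart from WT in both mutants, so the 250 bases before its start are shown. Those of ERCC5 are shown because it had the largest fold change there of the members that did not overlap with WT in Del52. They come from RefSeq (GRCh38.p14), NUDT1 at chr7:2249061-2249310 on the plus strand and ERCC5 at chr13:102845782-102846031 on the plus strand. Neither holds a match in capitals to any of 3 motifs searched on both strands (TTTNGCGC of E2F type, the NRF1 type written as GCGC, any base and TGCGC, and CCAAT). Their ratios of observed to expected CpG were 0.32 and 0.95, so the first is poor and the second rich in CpG.
NUDT1: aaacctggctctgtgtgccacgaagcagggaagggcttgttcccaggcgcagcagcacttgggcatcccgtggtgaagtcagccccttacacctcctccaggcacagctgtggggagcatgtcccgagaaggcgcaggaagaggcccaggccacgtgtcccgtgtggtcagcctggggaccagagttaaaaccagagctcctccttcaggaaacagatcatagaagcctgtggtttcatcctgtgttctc
ERCC5: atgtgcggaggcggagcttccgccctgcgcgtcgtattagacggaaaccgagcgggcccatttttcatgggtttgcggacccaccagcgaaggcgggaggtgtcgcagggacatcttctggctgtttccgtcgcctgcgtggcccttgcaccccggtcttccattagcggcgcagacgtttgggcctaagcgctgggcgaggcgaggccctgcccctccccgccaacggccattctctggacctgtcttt

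MGMT, which takes methyl groups off guanine and is used up in doing so, was dim in every array. It read 2.63, 2.65 and 2.67 in Del52, 2.70, 2.83 and 2.84 in Ins5, and 2.70, 2.55 and 2.52 in WT cells, none of them above the brightest antigenomic control. Every Del52 array was below every Ins5 array, while Ins5 and WT overlapped at 2.70. Against WT the log2 fold change was 0.06 in Del52 and 0.20 ± 0.06 (SE) in Ins5 (limma adjusted p = 0.581), the smallest adjusted p of any member in the Ins5 comparison. For Del52 against Ins5 it was -0.14 ± 0.06 (limma adjusted p = 0.876). The Ins5 value was 0.05 with array weights, 0.09 with weights estimated gene by gene and 0.09 without both WT replicates 2 and 3.

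**Figure D2:**
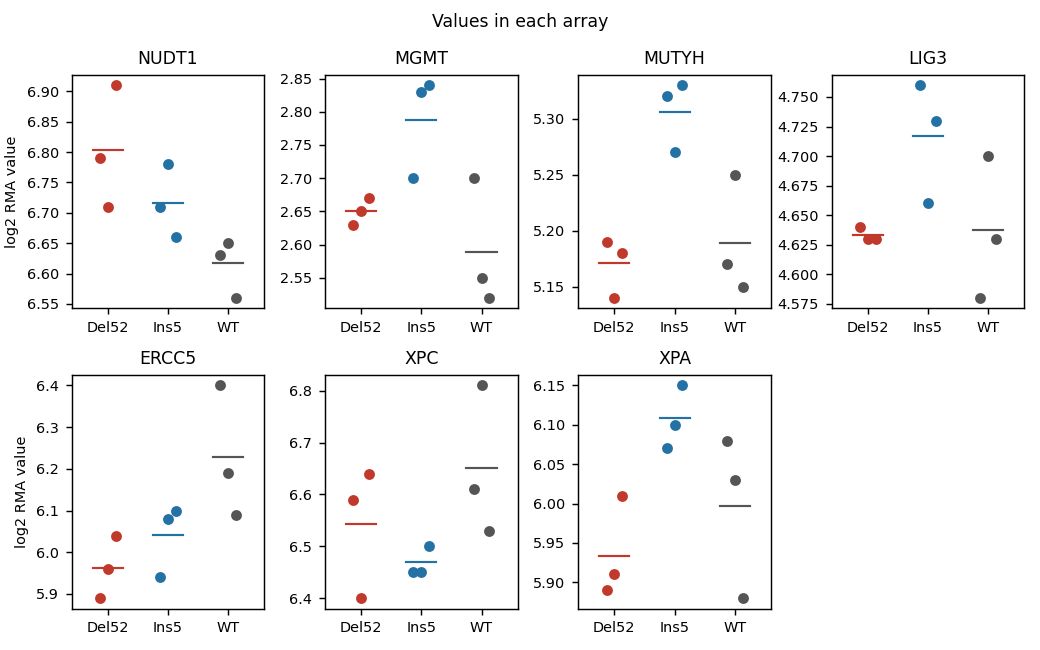
Log2 RMA values of the brightest probe set in each array (points) and group means (lines), with Del52 left, Ins5 in the middle and WT right. The 7 genes are those whose arrays did not overlap between 2 groups in that probe set or whose unadjusted p was under 0.05. The vertical scales differ, and the whole range of NUDT1 runs between 6.56 and 6.91.

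Nucleotide excision genes were mostly negative in Del52. In Del52 against WT, 10 of 12 were negative, with a median log2 fold change of -0.08, where 45.4% of all genes were negative. The count was 7 without WT replicate 2 or without Del52 replicate 2, and between 8 and 10 without any other 1 array. In Ins5 against WT, 7 of 12 were negative, with a median of -0.04. Only ERCC5 had an unadjusted p under 0.05 in Del52, and none had one in Ins5.

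ERCC5, the nuclease that makes the incision downstream of the lesion, read 5.89, 5.96 and 6.04 in Del52, 5.94, 6.08 and 6.10 in Ins5, and 6.40, 6.19 and 6.09 in WT cells. Every Del52 array was below every WT array, and the highest Ins5 array lay just above the lowest WT array. In Del52 against WT the log2 fold change was -0.26 ± 0.09 (SE, limma adjusted p = 0.625, 95% interval -0.47 to -0.06), and in Ins5 it was -0.19 ± 0.09 (limma adjusted p = 0.690). Over all genes, 4.36% had every Del52 array below every WT array, and ERCC5 was the only member to do so in its brightest probe set. The Del52 value was -0.18 without WT replicate 1, the highest array, and -0.44 without both WT replicates 2 and 3. All 4 ERCC5 probe sets were negative in both mutants: -0.26, -0.09, -0.21 and -0.19 in Del52, and -0.19, -0.10, -0.18 and -0.12 in Ins5.

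**Figure D3:**
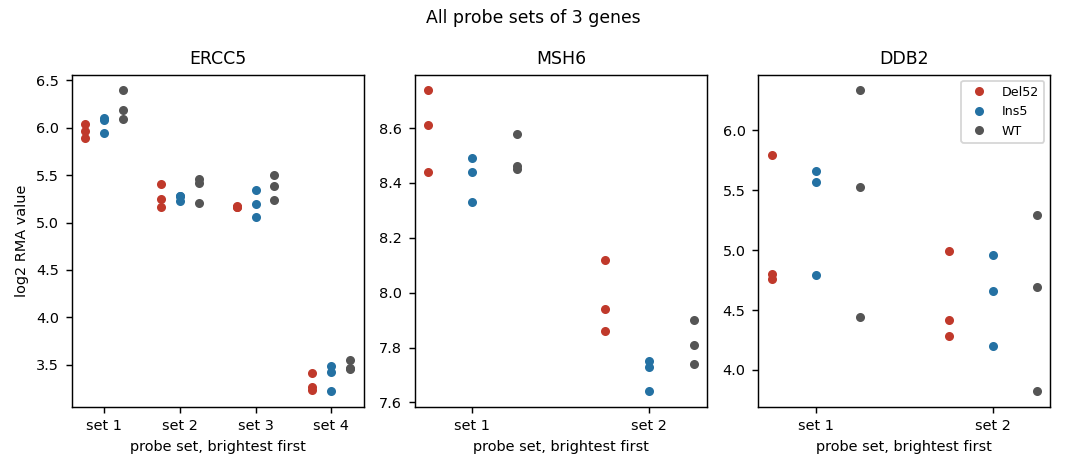
Log2 RMA values of all probe sets of ERCC5, MSH6 and DDB2, brightest first, with 3 arrays per group (Del52 left, Ins5 in the middle, WT right at each probe set). The Del52 mean lies below the WT mean in all 4 probe sets of ERCC5, with overlap in the second, and both DDB2 probe sets spread widely within every group.

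XPC, which finds the distortion of the helix, read 6.59, 6.40 and 6.64 in Del52, 6.45, 6.45 and 6.50 in Ins5, and 6.61, 6.81 and 6.53 in WT cells. Every Ins5 array was below every WT array, as for 3.3% of all genes, and Del52 overlapped both. Against WT, Ins5 had -0.18 ± 0.09 (SE, limma adjusted p = 0.702) and Del52 -0.11 on the log2 scale. It was -0.10 in Ins5 without WT replicate 2, and a dimmer XPC probe set also had -0.10 in Ins5. RAD23B, the partner that stabilizes XPC, had -0.02 in Del52 and 0.02 in Ins5.

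XPA, which verifies the lesion, separated the mutants. It read 5.89, 5.91 and 6.01 in Del52, 6.07, 6.10 and 6.15 in Ins5, and 6.08, 6.03 and 5.88 in WT cells. Del52 against Ins5 had a log2 fold change of -0.18 ± 0.06 (SE, limma adjusted p = 0.841), and WT lay across both mutants. In all, 4 of 40 members (MUTYH, LIG3, MGMT and XPA) had every Del52 array below every Ins5 array, which is 10% of them, against 6.28% of all genes in that direction. With 0 members in the opposite order, against 3.81% of all genes, the share in either direction was 10%, against 10.1%. In Del52 against WT 5% of members did not overlap in either direction, against 10.6% of all genes, and in Ins5 against WT 7.5%, against 11.5%. These counts cover the brightest probe set of each gene. Of the 71 dimmer probe sets of members, 9 did not overlap in Del52 against WT (5 higher and 4 lower), 2 in Ins5 against WT and 7 in Del52 against Ins5. The share over all dimmer probe sets was not computed, so these counts are not read as a result about the members.

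The remaining nucleotide excision genes overlapped between groups in their brightest probe sets. A dimmer DDB1 probe set had every Del52 array above every Ins5 array, with a difference of 0.33. A dim ERCC4 probe set, with no array above 2.08, had every Del52 array above every WT array (0.16). The other dimmer ERCC4 probe sets had -0.20, -0.07 and 0.03 in Del52 against WT. The helicases ERCC3 and ERCC2 of the transcription factor TFIIH had 0.15 and -0.10 in Del52 and -0.01 and 0.09 in Ins5. ERCC1 and ERCC4, which form the nuclease of the upstream incision, had -0.03 and -0.31 in Del52 and 0.05 and -0.17 in Ins5. ERCC4 read 5.60, 5.69 and 5.30 in Del52, 5.70, 5.75 and 5.57 in Ins5, and 5.75, 5.60 and 6.18 in WT cells, and its WT replicate 3 was the highest of the 9 arrays. ERCC6 and ERCC8, which couple repair to transcription, had -0.00 and -0.09 in Del52 and -0.07 and -0.06 in Ins5. DDB1 and DDB2, the complex that binds ultraviolet lesions in chromatin, had 0.11 and -0.32 in Del52 and 0.04 and -0.10 in Ins5.

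Mismatch repair genes had mostly small negative fold changes in the mutants, none of them past the threshold. In Ins5 against WT, 6 of 6 were negative (median -0.09), where 40.4% of all genes were, and the count was 5 or 6 with any 1 array left out. In Del52 5 of 6 were negative (median -0.06), and 3 without WT replicate 1 or without WT replicate 2. PMS1, a MutL-type protein, read 6.76, 6.94 and 6.70 in Del52, 6.53, 6.79 and 6.72 in Ins5, and 7.08, 6.63 and 6.93 in WT cells. Its groups overlapped, its log2 fold change in Ins5 was -0.20 ± 0.12 (SE, limma adjusted p = 0.796), and of its 7 probe sets 6 were negative in Ins5, between -0.36 and -0.01, and 1 was positive (0.17). PMS2 and MLH3, the other MutL-type members, had -0.03 and -0.07 in Del52 and -0.10 and -0.07 in Ins5. The exonuclease EXO1, which removes the strand with the error, had -0.11 and -0.10.

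MSH6, the MutS-type protein that finds single mismatched bases, was positive in Del52 (0.10) and negative in Ins5 (-0.08). It read 8.74, 8.44 and 8.61 in Del52, 8.33, 8.49 and 8.44 in Ins5, and 8.45, 8.58 and 8.46 in WT cells. Del52 against Ins5 was 0.18 ± 0.08 (SE, limma adjusted p = 0.899). In the dimmer MSH6 probe set every Del52 array (8.12, 7.86 and 7.94) was above every Ins5 array (7.64, 7.73 and 7.75), with a difference of 0.26, and WT arrays read 7.74, 7.90 and 7.81. MSH3, which finds larger loops, had -0.05 in Del52 and -0.01 in Ins5.

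Arrays of 1 group differed widely in several members. DDB2 had the largest spread within groups, with an SD of 0.70, above that of 99.1% of all genes. It read 4.80, 5.79 and 4.76 in Del52, 5.57, 5.66 and 4.79 in Ins5, and 5.53, 4.44 and 6.34 in WT cells. The lowest and the highest of the 9 arrays were both WT, and they differed by 3.72-fold. The dimmer DDB2 probe set had the same order at both ends (3.82 in WT replicate 2 and 5.29 in WT replicate 3). The 95% interval of the Del52 fold change accordingly ran between -1.48 and 0.85.

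NEIL2 (SD 0.38), NTHL1 (0.35), ERCC2 (0.33), PARP1 (0.32) and ERCC8 (0.31) came next, and they varied the other way. NTHL1 read 5.52, 4.93 and 5.34 in Del52, 4.99, 5.01 and 5.48 in Ins5, and 4.99, 5.55 and 4.67 in WT cells. PARP1 read 8.87, 8.63 and 9.10 in Del52, 8.71, 8.63 and 9.03 in Ins5, and 8.86, 9.19 and 8.31 in WT cells. In NEIL2, NTHL1, ERCC2, PARP1 and ERCC8 WT replicate 3 was the lowest WT array and WT replicate 2 the highest, opposite to DDB2. At the other end, MUTYH, XRCC1 and ERCC6 had SDs of 0.038, 0.042 and 0.043. ERCC6 read 4.95, 4.93 and 4.95 in Del52, 4.84, 4.94 and 4.84 in Ins5, and 4.96, 4.89 and 4.97 in WT cells. Over all 40 members the median SD within groups was 0.12, against 0.10 over all genes and 0.15 over genes above the median level.

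**Figure D4:**
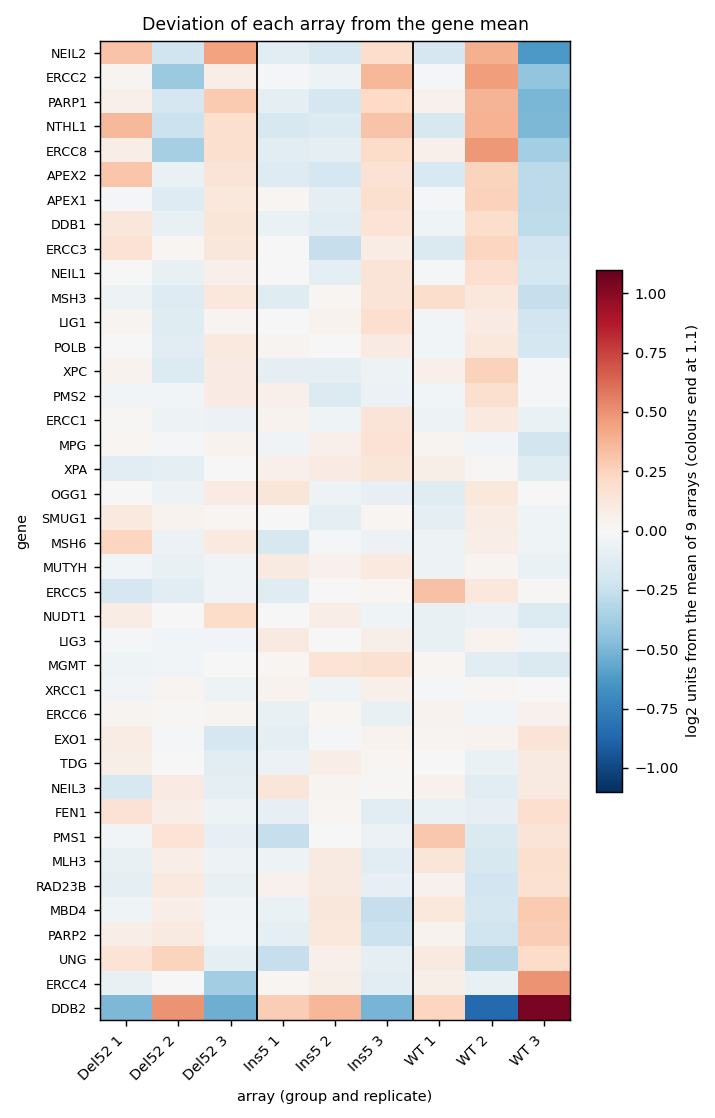
Deviation of each array (columns, by group and replicate) from the mean of the 9 arrays for the 40 genes, ordered by the difference of WT replicate 2 minus WT replicate 3, on a log2 colour scale from -1.1 (blue) to 1.1 (red). DDB2 (bottom) and NEIL2 (top) show opposite patterns in Del52 replicates 2 and 3, Ins5 replicates 2 and 3, and WT replicates 2 and 3.

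The order of arrays recurred across the groups. The first principal component over all genes, which held 70.5% of the variance, was highest in replicate 3 of Del52, replicate 3 of Ins5 and replicate 2 of WT, and lowest in replicates 2, 2 and 3 of the same groups. Between these ends within each group, 20 members were higher in all 3 groups, 11 were lower in all 3 and 9 were mixed, so 77.5% kept 1 direction, against 60.1% of all genes and 78.3% of genes above the median level. DDB2 differed by -1.03 in Del52, -0.87 in Ins5 and -1.90 in WT cells, ERCC4 by -0.40, -0.18 and -0.58, and MBD4 by -0.10, -0.37 and -0.48. NEIL2 differed by 0.66, 0.37 and 1.03 and ERCC2 by 0.48, 0.42 and 0.90. Since the component was computed from these arrays, the counts are a description without a test. The difference between the actin probe sets at both ends of the transcript is a sign of RNA or labelling quality. It was lower at the high end in each group (1.24 against 1.33 in Del52, 1.24 against 1.38 in Ins5, 1.08 against 1.31 in WT cells). Replicate 1, at neither end, was lower still in Del52 (1.18) and Ins5 (1.22). The same difference for GAPDH was lower at the high end in Ins5 (0.08 against 0.17) and WT cells (0.03 against 0.11), but not in Del52 (0.10 against 0.09). The part of RNA or labelling quality in these values was not tested. Differences between groups held a median of 18.9% of a member's variance over the 9 arrays, against 21.3% over all genes and 14.5% over genes above the median level. Such a share is positive even where groups do not differ, so it is not read as an effect of the constructs. In 8 members WT replicate 2 was the highest and WT replicate 3 the lowest of the 9 arrays, and in 3 the reverse held. All probe sets agreed in the sign of WT replicate 2 minus WT replicate 3 in 22 of the 31 members with more than 1 probe set, but in the sign of Del52 minus WT in 18 and of Ins5 minus WT in 9.

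The sequences before the start of the genes with wide and opposite spread were read beside these values. The RefSeq table (GRCh38.p14) held 37 of the 40 members, with NEIL2, SMUG1 and POLB not among them, and was searched from 250 bases before to 50 bases after the start. The NRF1 motif was found in 9 of 37 members (24.3%), against 9.0% of 14492 measured genes and 6.3% of all 27305 promoters in the table. CCAAT was found in 17 (45.9%), against 36.4% and 35.7%, and TTTNGCGC in 2 (5.4%), against 2.5% and 1.8%. No match of 1 motif overlapped a match of another, and the 2 matches to TTTNGCGC in MSH3 overlapped each other. The median ratio of observed to expected CpG was 0.90 in members and 0.77 in measured genes. DDB2 (chr11:47214204-47214453, plus strand) and ERCC2 (chr19:45370574-45370823, minus strand) varied in opposite directions and each held 3 matches to CCAAT or its reverse complement in the 250 bases shown. ERCC2 also held 1 match to the NRF1 motif, and NTHL1 (chr16:2047835-2048084, minus strand) held none of the 3 motifs. Capitals mark the matches, each sequence runs 5′ to 3′ on the gene's strand, and a match is only a match of letters.
DDB2: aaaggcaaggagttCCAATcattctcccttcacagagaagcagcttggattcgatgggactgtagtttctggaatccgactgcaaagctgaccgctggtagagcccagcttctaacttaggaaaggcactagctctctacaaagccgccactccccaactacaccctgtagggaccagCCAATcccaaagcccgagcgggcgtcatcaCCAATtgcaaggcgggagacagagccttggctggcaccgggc
ERCC2: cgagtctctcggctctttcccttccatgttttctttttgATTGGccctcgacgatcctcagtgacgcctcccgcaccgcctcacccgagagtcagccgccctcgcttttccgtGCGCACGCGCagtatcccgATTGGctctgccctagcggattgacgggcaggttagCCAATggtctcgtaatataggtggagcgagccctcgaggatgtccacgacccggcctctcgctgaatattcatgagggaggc
NTHL1: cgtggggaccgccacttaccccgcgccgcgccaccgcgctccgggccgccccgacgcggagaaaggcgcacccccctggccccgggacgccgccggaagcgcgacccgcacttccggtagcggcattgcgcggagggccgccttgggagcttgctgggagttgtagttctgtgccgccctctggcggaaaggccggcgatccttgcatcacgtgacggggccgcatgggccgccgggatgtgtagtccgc

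Genes that work with the members were read from the same fit. Of those listed, 10 partners in base excision, 16 in nucleotide excision, 11 in mismatch repair and 6 of the pool and of direct reversal were measured. None passed the limma test in any comparison. In Del52 against WT, 7 of 10, 7 of 16, 7 of 11 and 5 of 6 were positive, against 54.6% of all genes, and in Ins5 2 of 10, 8 of 16, 6 of 11 and 6 of 6, against 59.6%. RPA1, a subunit of the protein that coats single strands, read 8.62, 8.55 and 8.52 in Del52, 8.42, 8.48 and 8.46 in Ins5, and 8.40, 8.40 and 8.45 in WT cells. Every Del52 array was above all other arrays, with log2 fold changes of 0.15 ± 0.04 (SE) against WT (limma adjusted p = 0.603) and 0.11 ± 0.04 against Ins5 (limma adjusted p = 0.844). MSH4, a MutS-type gene of meiosis, showed the same order at a level within the antigenomic span: 2.88, 2.89 and 2.82 in Del52, 2.75 in each Ins5 array, and 2.72, 2.72 and 2.80 in WT cells. Its log2 fold change was 0.12 ± 0.04 (SE) in Del52 against WT (limma adjusted p = 0.642).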

How the data were processed

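The deposited table holds log2 values per probe set for 9 arrays, made by the authors with Partek and RMA per the submitters' processing notes, with versions and settings not given in the sources used here. RMA corrects background, normalizes between arrays and summarises probes, so a shift shared by most genes would be removed. Base 2 was taken from the values, whose highest was 12.2, and from RMA's usual output. Of 49386 probe sets, 93 controls, 1327 with several symbols and 2713 with none were left out. The 45253 others gave 18239 genes.

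limma 3.58.1 (R 4.3.3) was fitted to all 9 arrays with a mean per group (6 residual degrees of freedom), two-sided, with Benjamini-Hochberg adjustment over all genes. Lists were described by counts and medians with Python 3.11.15. The fit was tested on simulated data. The members, partner lists, tests and alternatives were chosen with earlier results of these data known. Values in every array are given for members with an unadjusted p under 0.05 or groups that do not overlap, for the 3 largest and 3 smallest spreads, and for partners or paralogs of these, and for partner genes outside the list with an unadjusted p under 0.05, at most 5 a comparison. OGG1, PMS1, MSH6, ERCC4 and PARP1 are shown in full as such partners or paralogs or for their part in a pattern, chosen after their values were seen. Alternatives changed normalization, dim genes, probe sets, variance model, weights, arrays, the replicate block, the first component and single arrays.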

Additional observations from a re-analysis of the deposited data

How the results depend on the processing

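Other settings were run for ERCC5, LIG3, MGMT, MUTYH, NUDT1, XPA and XPC alone among single members, and of their fold changes 194 kept their sign and did not pass the threshold, and the other 4 kept their sign and passed it, all with array weights: ERCC5 (-0.45) and NUDT1 (0.17) in Del52 against WT, and MUTYH (0.14) and XPC (-0.15) in Ins5 against WT. With array weights 3190 genes and 8 members were called in Del52 against WT and 4017 genes and 10 members in Ins5 against WT. That setting gave WT replicate 1 a weight of 67 and no other array more than 1.82, so the WT group was in effect 1 array. A gene-by-gene estimate of the weights, added after the data were seen (3.56 for WT replicate 1), called 0 members. A fit that took the first component as a covariate called 4 genes in Del52 and 7 in Ins5 against WT, 0 of them members. No other setting called a gene. With any 1 array left out, the median fold change of members lay between -0.036 and 0.057 in Ins5 against WT and between -0.026 and 0.022 in Del52 against Ins5, and 0 members were called. Members at an unadjusted p under 0.05, 2 in each comparison, numbered 0 to 9 in the settings without default weights and 16, 13 and 6 with them. The share of all genes at that threshold was not computed in these settings, so these counts are not read as a result about the members. The replicate block left 1 such member in Del52 against WT, 1 in Ins5 against WT and 0 between the mutants, and called none. Same-numbered arrays correlated between -0.92 and 0.64 in their deviations from group means, and over 0.1 in 2 of 9 pairs, both between Del52 and Ins5, so the numbers were not taken to pair the samples. Of the 40 members, 24 had at least 1 array within the span of the antigenomic controls, which limits what can be read from their fold changes. By mean over 9 arrays, 0 of 40 fell below the control median of 2.01.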

Other observations

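PCNA and DUT, which serve these pathways at the replication fork, varied within groups in the same order as DDB2. PCNA, the sliding clamp used in long-patch base excision and mismatch repair, read 10.47, 10.63 and 10.27 in Del52, 10.34, 10.61 and 10.14 in Ins5, and 10.35, 9.92 and 10.76 in WT cells. DUT, which keeps uracil nucleotides out of DNA, read 9.29, 9.50 and 9.08 in Del52, 9.27, 9.51 and 9.10 in Ins5, and 9.27, 8.82 and 9.64 in WT cells. In both genes replicate 2 was the highest Del52 and Ins5 array and replicate 3 the highest WT array. Of 43 measured partner genes, 21 were lower and 14 higher at the high end of the first component in all 3 groups, and 8 were mixed. Other fork genes among the partners went both ways between WT replicates 2 and 3. WT replicate 2 minus WT replicate 3 was -0.84 in PCNA and -0.82 in DUT. It was also negative in RPA2 (-0.71), RPA3 (-0.67), DNA2 (-0.50), RFC1 (-0.44), POLD4 (-0.36), RFC2 (-0.35), POLD3 (-0.20) and RPA1 (-0.06). It was positive in RFC3 (0.63), POLD2 (0.24), RFC4 (0.21), POLD1 (0.18) and RFC5 (0.06). PCNA and DUT were picked out after their values were seen, and no test was made.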
